A study of Homo sapiens with 19 samples.

Results

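The genes described here are 245 antisense long noncoding RNAs measured in MDA-MB-231, an established triple-negative breast cancer line with mesenchymal features. A gene was taken when the table of the EZH2 knockdown classed it as antisense and its normalized count, averaged over the 4 libraries of that table, was at least 50. Of the 28870 genes listed there 3045 carried the antisense class. Among these, 2795 lay below 50 and 5 were left out by name, namely RP5-1120P11.1 (SCIRT), EPB41L4A-AS1, ZFAS1 and the SNHG genes, which leaves the 245. The genes were thus selected on their levels in that table, which are given only as a description. Just inside the threshold lay AC091729.9 at 50.1, RBM26-AS1 at 50.4 and AC137932.5 at 50.5 normalized counts, and just outside it RP11-412D9.4 at 49.5, KMT2E-AS1 at 49.4 and A1BG-AS1 at 48.99.

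RNA was sequenced from 19 libraries in 3 tables. In the culture table, attached cells in serum (adherent, 2 libraries) were set beside floating spheres grown for 16 h (2 libraries) or 5 d (2 libraries) in serum-free DMEM/F12 with B27, EGF and FGF. Attachment, serum and growth factors changed together and cannot be told apart. In the siSCIRT table, cells carried a control siRNA (siNC) or 1 of 2 siRNAs against the long noncoding RNA SCIRT (siSCIRT 1 and siSCIRT 2, 3 libraries each) for 48 h in sphere medium, and in the siEZH2 table a control siRNA or one against EZH2 (2 libraries each) for 48 h. EZH2 is the methyltransferase of Polycomb repressive complex PRC2. The columns used for siSCIRT 1 carry only numbers, and their siRNA was inferred from the column names. The libraries held 6104222 to 14781941 reads on genes in the culture table, 38635418 to 62218847 in the siSCIRT table and 27989577 to 38955312 in the siEZH2 table.

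Antisense long noncoding RNAs are transcribed from the strand opposite another gene, usually a protein-coding one. Some start head to head with the sense gene at a shared promoter, others begin inside it or past its end, and their exons may or may not lie under its exons. Some act on the sense gene by recruiting chromatin regulators, by keeping its promoter open or by pairing with its mRNA, while for many no function is known. The library kit does not mark strand, so where exons of the pair overlap the reads of the antisense RNA and of its sense partner cannot be told apart. Gene structures were looked up by gene identifier in GENCODE v29, where 237 of the 245 were found. Of these, 196 overlap a coding gene on the opposite strand and 100 start within 1000 bases of the start of such a gene. In 73 no exon base lies under an exon of the other strand, in 12 at least 50% of exon bases do, and the median is 7.57%.

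Head-to-head members are shown by the window from 250 bases before to 50 bases after their start, as RefSeq gives it for GRCh38.p14. RefSeq windows were matched for 132 of the 245, and 54 pairs named as gene and gene-AS had a window for both genes. In 15 of the 54 (27.8%) the 2 windows share at least 30 bases. The shared stretch need not cover the starts, and in RUSC1-AS1, UGDH-AS1 and WAC-AS1 it ends before them. The 5 windows printed below belong to such pairs and to members whose culture values are described further on. They are written 5′ to 3′ on the strand of the antisense gene, with the stretch that the sense partner's window also covers in capitals. RefSeq and GENCODE starts can differ, and in GENCODE v29 the starts of RUSC1-AS1 and HHIP-AS1 lie more than 1000 bases from those of their partners.
RUSC1-AS1 (chr1:155324127-155324426, minus strand, 170 bases shared with RUSC1): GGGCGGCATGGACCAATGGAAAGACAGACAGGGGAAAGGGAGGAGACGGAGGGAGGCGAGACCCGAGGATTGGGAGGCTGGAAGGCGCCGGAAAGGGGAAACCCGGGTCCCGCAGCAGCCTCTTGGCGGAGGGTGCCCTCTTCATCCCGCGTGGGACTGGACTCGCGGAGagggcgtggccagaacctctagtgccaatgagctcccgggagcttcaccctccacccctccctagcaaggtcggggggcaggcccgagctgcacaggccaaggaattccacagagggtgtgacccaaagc
TMEM161B-AS1 (TMEM161B-DT in RefSeq, chr5:88268766-88269065, plus strand, 270 bases shared with TMEM161B): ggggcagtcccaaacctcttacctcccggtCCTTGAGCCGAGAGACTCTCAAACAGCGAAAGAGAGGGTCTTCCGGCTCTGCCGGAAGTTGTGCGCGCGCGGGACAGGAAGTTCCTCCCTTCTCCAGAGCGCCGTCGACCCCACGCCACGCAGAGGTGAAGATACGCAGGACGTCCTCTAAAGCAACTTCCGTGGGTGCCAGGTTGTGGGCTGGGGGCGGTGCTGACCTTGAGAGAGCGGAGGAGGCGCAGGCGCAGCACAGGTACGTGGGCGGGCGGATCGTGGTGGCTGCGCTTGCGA
HHIP-AS1 (chr4:144645970-144646269, minus strand, 236 bases shared with HHIP): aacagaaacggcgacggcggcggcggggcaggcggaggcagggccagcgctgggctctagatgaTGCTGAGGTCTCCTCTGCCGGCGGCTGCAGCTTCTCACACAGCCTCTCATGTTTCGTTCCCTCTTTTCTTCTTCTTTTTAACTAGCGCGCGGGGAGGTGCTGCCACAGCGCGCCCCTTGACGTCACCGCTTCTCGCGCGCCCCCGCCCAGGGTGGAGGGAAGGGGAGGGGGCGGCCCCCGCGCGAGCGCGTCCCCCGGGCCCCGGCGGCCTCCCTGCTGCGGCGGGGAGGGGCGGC
UGDH-AS1 (chr4:39527589-39527888, plus strand, 101 bases shared with UGDH): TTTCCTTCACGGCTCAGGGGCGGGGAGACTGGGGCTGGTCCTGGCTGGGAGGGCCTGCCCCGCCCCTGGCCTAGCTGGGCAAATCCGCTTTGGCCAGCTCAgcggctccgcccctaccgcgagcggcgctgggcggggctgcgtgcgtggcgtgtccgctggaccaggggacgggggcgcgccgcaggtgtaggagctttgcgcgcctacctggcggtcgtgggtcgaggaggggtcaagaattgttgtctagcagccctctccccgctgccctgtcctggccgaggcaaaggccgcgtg
WAC-AS1 (chr10:28532305-28532604, minus strand, 76 bases shared with WAC): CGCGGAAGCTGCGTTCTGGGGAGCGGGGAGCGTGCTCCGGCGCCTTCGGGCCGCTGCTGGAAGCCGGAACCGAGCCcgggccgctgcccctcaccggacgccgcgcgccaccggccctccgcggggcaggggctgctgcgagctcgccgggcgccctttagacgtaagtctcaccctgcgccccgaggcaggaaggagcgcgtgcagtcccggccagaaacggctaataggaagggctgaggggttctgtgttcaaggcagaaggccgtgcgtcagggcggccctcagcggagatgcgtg
The letters ACGTG or GCGTG, the core bound by HIF factors and in part that of the E-box CACGTG, stood on either strand in 4 of these 5 windows, all but that of HHIP-AS1. They stood in 88 of the 132 member windows (66.7%) and in 17012 of all 35116 RefSeq windows (48.4%). The CCAAT letters stood on either strand in 31.1% of member windows against 34.6% of all, among the 5 printed only in that of RUSC1-AS1. TATAAA on the gene's own strand stood in 4.55% against 7.33% and in none of the 5. These are matches of letters and were not tested as binding sites.

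The 245 genes held a small share of all normalized counts, 0.402% to 0.426% in the culture libraries, 0.162% to 0.183% in the siSCIRT libraries and 0.162% to 0.177% in the siEZH2 libraries. The levels are not per length, so they do not rank the genes by number of transcripts. The culture table listed 241 of them, of which 199 passed the filter of a mean of at least 10, 240 of 244 passed it in the siSCIRT table, and all 245 were listed and passed in the siEZH2 table. VIM-AS1, antisense to the intermediate filament gene VIM, took 30.05% of all counts on these genes in the culture table. Where exons of that pair overlap, its reads cannot be told apart from those of VIM. In the siRNA tables the counts were spread over FGD5-AS1, TUG1, MMP24-AS1 and others. There the 5 with the most counts held 27.27% (siSCIRT) and 25.92% (siEZH2) together, against 50.04% in the culture table.

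Both targets fell in their own table. SCIRT was at 268.9 ± 16.1 normalized counts (SD, n = 3) in siNC. It was at 119.7 ± 7.63 after siSCIRT 1 and 127.1 ± 28.6 after siSCIRT 2. EZH2 went from 523.7 ± 7.89 (SD, n = 2) to 276.4 ± 1.89. EZH2 was also lower with the siSCIRT siRNAs. In the siSCIRT table it stood at 2526 ± 219.3 (SD, n = 3) in siNC, 1751 ± 85.65 after siSCIRT 1 and 1786 ± 102.1 after siSCIRT 2. In the siEZH2 table SCIRT was at 170.3 ± 36.74 (SD, n = 2) in siNC and 130.4 ± 18.05 with siEZH2. The 6 markers of MDA-MB-231 were listed in every table and took 0.645% to 0.842% of counts in the culture libraries. The luminal markers together took 0.0205% to 0.0356%. Markers of other cell types summed to 22.6 to 67.2 normalized counts per culture library, with 2 of them listed, PTPRC at 0 to 12.1 as group means and COL1A1 at 12.6 in adherent cells, 59.8 at 16 h and 44.9 at 5 d. Mitochondrial transcripts made up 6.83% to 6.89% of adherent counts, 8.55% to 8.56% at 16 h and 9.65% to 9.74% at 5 d. The part of these in the culture results was not tested.

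Between adherent cells and spheres the antisense RNAs moved in both directions. At 16 h 37 rose and 39 fell of 199 tested, 38.2%, against 53.9% of all tested genes. At 5 d 49 rose and 28 fell, 38.7% against 55.2%, and from 16 h to 5 d 47 rose and 22 fell, 34.7% against 48.3%. Calls here are an adjusted p under 0.05 in limma on log2(normalized count + 1), with Benjamini-Hochberg adjustment over all tested genes, and fold changes are on that scale. The 16 h and 5 d comparisons share the adherent libraries. In bulk RNA, fewer cells that express a gene and less of its RNA per cell cannot be told apart. Antisense genes outside the list were called in 32.5%, 37.9% and 34.1% of cases, intergenic noncoding RNAs in 36.8%, 36.3% and 33.6%, and coding genes in 57.2%, 58.3% and 50.9%. More of the antisense RNAs rose than fell at 5 d and from 16 h to 5 d. Of all genes 26.3% rose and 28.9% fell at 5 d, and 22.8% rose and 25.5% fell from 16 h to 5 d. The members were chosen on levels in sphere libraries only, which favours RNAs high in spheres, so their lean is a description. Of 976 antisense genes outside the list, 177 rose and 193 fell at 5 d. From 16 h to 5 d 151 of them rose and 182 fell, and at 16 h 170 rose and 147 fell. At 16 h 27.4% of all genes rose and 26.5% fell. At 16 h 20 rose and 23 fell by at least 2-fold, against 8.54% and 8.6% of all genes, at 5 d 26 and 11 (7.68% and 6.95%), and from 16 h to 5 d 23 and 10 (5.22% and 4.98%). Their median log2 change was 0.01 at 16 h, 0.17 at 5 d and 0.13 from 16 h to 5 d, beside medians of -0.01, -0.02 and 0.00 over all genes. Of the calls, 44 of 76 at 16 h, 44 of 77 at 5 d and 40 of 69 between the 2 sphere times held under every alternative run. Unless a library is named below, the calls given for single genes are among these.

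**Figure D1:**
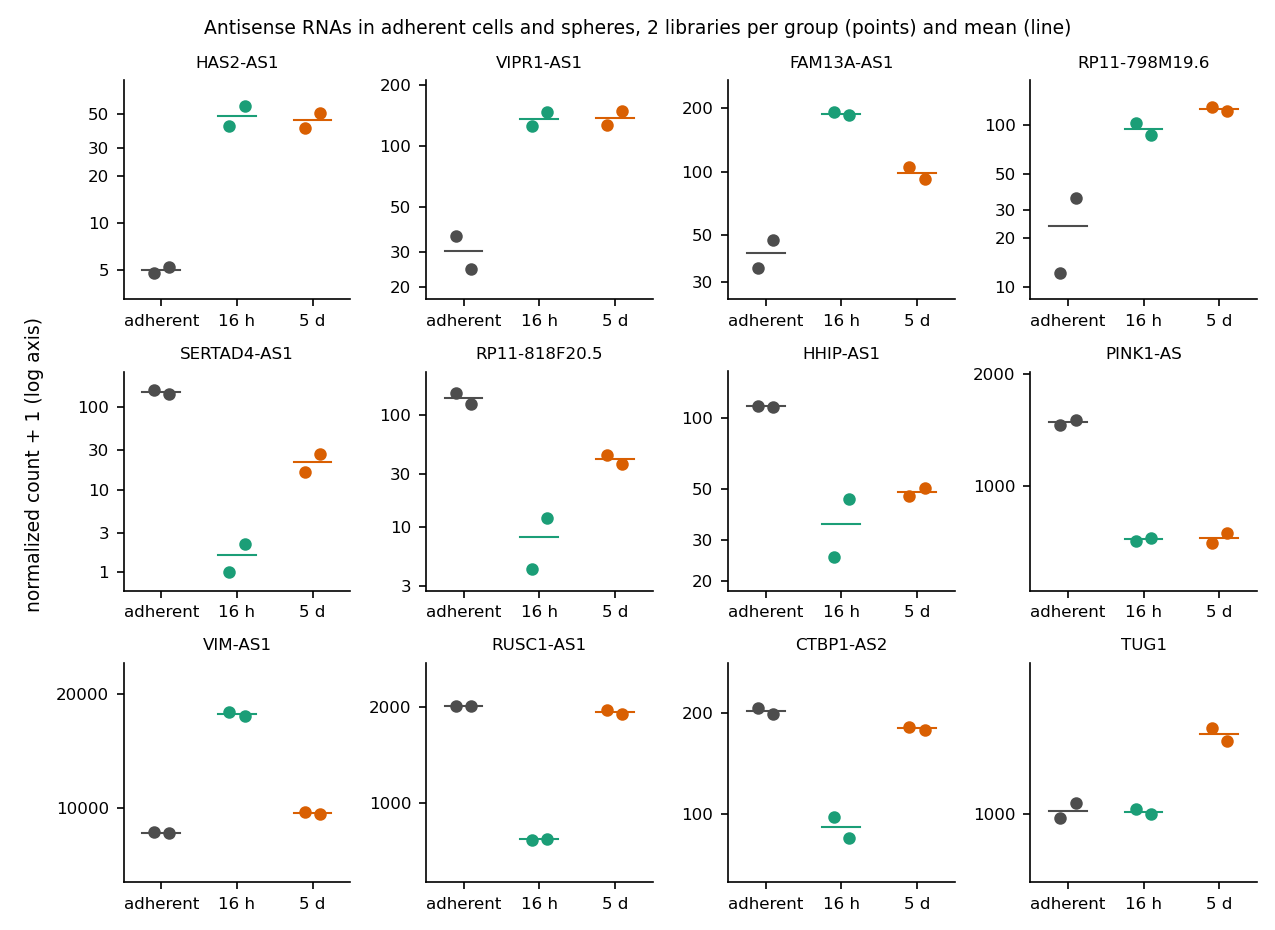
Normalized counts plus 1 (log axis, own range per panel) of 12 antisense RNAs in adherent cells, 16 h spheres and 5 d spheres, with a point per library and a line at the mean of 2. The sphere points of HAS2-AS1, VIPR1-AS1, FAM13A-AS1 and RP11-798M19.6 lie above the adherent ones, those of SERTAD4-AS1, RP11-818F20.5, HHIP-AS1 and PINK1-AS below, VIM-AS1 peaks and RUSC1-AS1 and CTBP1-AS2 dip at 16 h, and TUG1 is higher at 5 d only.

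Several antisense RNAs rose in spheres together with the coding gene they face. Where exons of such a pair overlap, the reads of the 2 cannot be told apart. For HAS2-AS1 the share of the pair's counts was also higher in culture than in siRNA libraries, as given further on. HAS2-AS1 faces HAS2, a hyaluronan synthase that builds the matrix polysaccharide hyaluronan. It stood at 3.77 and 4.26 normalized counts in adherent cells, 40.5 and 54.96 at 16 h, and 39.3 and 49.3 at 5 d. Neither sphere group overlapped the adherent one, and the log2 change was 3.27 ± 0.41 (SE, adjusted p = 1.36e-08) at 16 h and 3.17 ± 0.41 (adjusted p = 2.94e-08) at 5 d. HAS2 itself rose from 61.1 and 60.9 to 922 and 905 at 16 h and 462.7 and 522.3 at 5 d, 3.88 ± 0.12 and 2.99 ± 0.12 on the log2 scale. RP11-34A14.3 overlaps LOXL4, a lysyl oxidase family member that crosslinks collagen and elastin, on the opposite strand. Its counts were 21.9 and 11.6 in adherent cells, 73.6 and 70.8 at 16 h, and 38.3 and 57 at 5 d, all sphere libraries above the adherent ones. RP11-34A14.3 rose by 2.11 ± 0.33 (adjusted p = 1.26e-06) and 1.49 ± 0.33 (adjusted p = 0.000237), and LOXL4 by 2.04 ± 0.07 and 1.76 ± 0.07. VIPR1-AS1 faces VIPR1, a receptor for vasoactive intestinal peptide. It stood at 34.7 and 23.7 in adherent cells, 124.7 and 145.3 at 16 h, and 125.3 and 147.9 at 5 d. The 4 sphere libraries lay close together and well above the adherent ones, 2.19 ± 0.23 (adjusted p = 2.68e-10) and 2.21 ± 0.23 (adjusted p = 2.67e-10) higher, beside 2.45 ± 0.08 and 2.58 ± 0.08 for VIPR1.

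FAM13A-AS1 faces FAM13A and went from 33.96 and 46.3 in adherent cells to 191.9 and 184.4 at 16 h and 104.6 and 90.9 at 5 d. No 2 of the 3 groups overlapped. The log2 change was 2.22 ± 0.22 (adjusted p = 3.85e-11) at 16 h and 1.28 ± 0.22 (adjusted p = 5.03e-06) at 5 d, and between the sphere times it fell by 0.94 ± 0.22 (adjusted p = 0.000475). RP11-798M19.6 starts 477 bases from the start of SAP30, a subunit of the SIN3 histone deacetylase complex, and shares no exon base with it. It stood at 11.3 and 34.7 in adherent cells, 102.3 and 85.5 at 16 h, and 128.4 and 120.2 at 5 d. Both sphere groups lay above the adherent one, by 2.17 ± 0.33 (adjusted p = 1.7e-06) and 2.58 ± 0.33 (adjusted p = 1.04e-07), while SAP30 rose by 0.90 ± 0.12 and 0.51 ± 0.12. RASSF8-AS1, opposite the RAS-association domain gene RASSF8, rose by 1.90 ± 0.44 (adjusted p = 0.000413) at 16 h and by 1.54 ± 0.44 (adjusted p = 0.00341) at 5 d, the latter lost without 5 d replicate 1 (1.09, adjusted p = 0.0767).

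The vimentin locus moved mainly at 16 h. VIM-AS1 stood at 8632 and 8583 in adherent cells, 17890 and 17480 at 16 h, and 9776 and 9633 at 5 d. The 16 h libraries lay about 1 log2 unit above both other groups (1.04 ± 0.02, adjusted p = 2.68e-32), and the 5 d libraries remained slightly above adherent cells (0.17 ± 0.02, adjusted p = 5.92e-09). VIM changed by 0.95 ± 0.01 and 0.10 ± 0.01, so the log2 ratio of VIM-AS1 to VIM differed from that of adherent cells by 0.08 and 0.07, neither called. In VIM-AS1, 32.2% of exon bases lie under exons of the opposite strand. Where exons of the pair overlap, its reads cannot be told apart from those of VIM, which limits the counts and ratios given here. VIM-AS1 also held a far larger share of the pair's counts in culture than in siRNA libraries, as given further on. RP11-93B14.5, listed as SLCO4A1-AS1 in GENCODE v29 and opposite the organic anion transporter gene SLCO4A1, followed a course like that of VIM-AS1. It was at 264.9 and 280.1, then 483.9 and 517.8, then 287.8 and 332.8, a rise of 0.88 ± 0.11 (adjusted p = 1.19e-08) at 16 h. At 5 d the values lay close to adherent ones (0.18, adjusted p = 0.156). MFI2-AS1, opposite the melanotransferrin gene MFI2, and ZNRD1-AS1 also peaked at 16 h, 1.56 ± 0.26 (adjusted p = 3.41e-06) and 1.15 ± 0.17 (adjusted p = 2.79e-07) above adherent cells, and fell again to 5 d by 1.23 ± 0.26 and 1.17 ± 0.17.

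Other pairs fell together. SERTAD4-AS1, opposite the SERTA domain gene SERTAD4, had 160.7 and 145.5 normalized counts in adherent cells, 0 and 1.22 at 16 h, and 15.5 and 26.2 at 5 d. The 16 h value rests on a total of 1 read over both libraries together. The ratio of adherent to 16 h libraries is thus 267.8 with a counting interval of 48.06 to 10580. That of 5 d to 16 h is 36.48 with an interval of 6.547 to 1441. Both are 95% intervals that cover counting error only. The 5 d libraries lay 2.86 ± 0.49 (adjusted p = 5.26e-06) below adherent cells on the log2 scale. SERTAD4 went from 221.1 and 251.4 to 6.4 and 1.22 and then to 4.14 and 13.9. RP11-818F20.5 overlaps TXNRD1, the cytosolic thioredoxin reductase, with no exon base in common. It stood at 157 and 124.8 in adherent cells, 3.2 and 11 at 16 h, and 43.5 and 35.4 at 5 d. The groups did not overlap, and the change was -4.31 ± 0.38 (adjusted p = 3.68e-12) at 16 h and -1.81 ± 0.38 (adjusted p = 0.000115) at 5 d, beside -1.46 ± 0.03 and -0.67 ± 0.03 for TXNRD1.

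HHIP-AS1 shares part of its promoter window, printed above, with HHIP, a membrane protein that binds and holds back Hedgehog ligands. It stood at 112.4 and 110.8 in adherent cells, 24.5 and 44 at 16 h, and 45.6 and 49.3 at 5 d. All sphere libraries were lower, by -1.73 ± 0.28 (adjusted p = 1.77e-06) and -1.22 ± 0.28 (adjusted p = 0.000325), beside -1.68 ± 0.31 and -0.76 ± 0.31 for HHIP. PINK1-AS faces PINK1, the kinase that marks damaged mitochondria for removal, and 42.9% of its exon bases lie under opposite exons. Where exons of the pair overlap, reads cannot be told apart. Its share of the pair's counts was also higher in culture than in siRNA libraries, as given further on. PINK1-AS went from 1461 and 1506 to 708.8 and 720.6 at 16 h and 699.8 and 741 at 5 d. Both sphere groups were equally far below the adherent one, -1.05 ± 0.07 (adjusted p = 2.09e-16) and -1.04 ± 0.07 (adjusted p = 3.89e-16), and PINK1 fell by 0.99 ± 0.05 and 1.12 ± 0.05. ITGB2-AS1, opposite the leukocyte integrin gene ITGB2, fell by 2.03 ± 0.42 (adjusted p = 7.92e-05) at 16 h, and its 5 d call (-1.21 ± 0.42, adjusted p = 0.0134) was lost without either adherent library or 5 d replicate 2, with an adjusted p of up to 0.138. H1FX-AS1, opposite the linker histone gene H1FX, fell by 0.62 ± 0.16 (adjusted p = 0.0016) and 0.88 ± 0.16 (adjusted p = 1.85e-05). LBX2-AS1 and CTD-2263F21.1, the latter within EGFLAM, fell at 16 h only for a time, by 1.42 ± 0.25 (adjusted p = 9.67e-06) and 2.12 ± 0.31 (adjusted p = 3.19e-07), and at 5 d they differed from adherent cells by -0.25 (adjusted p = 0.411) and -0.35 (adjusted p = 0.355).

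**Figure D2:**
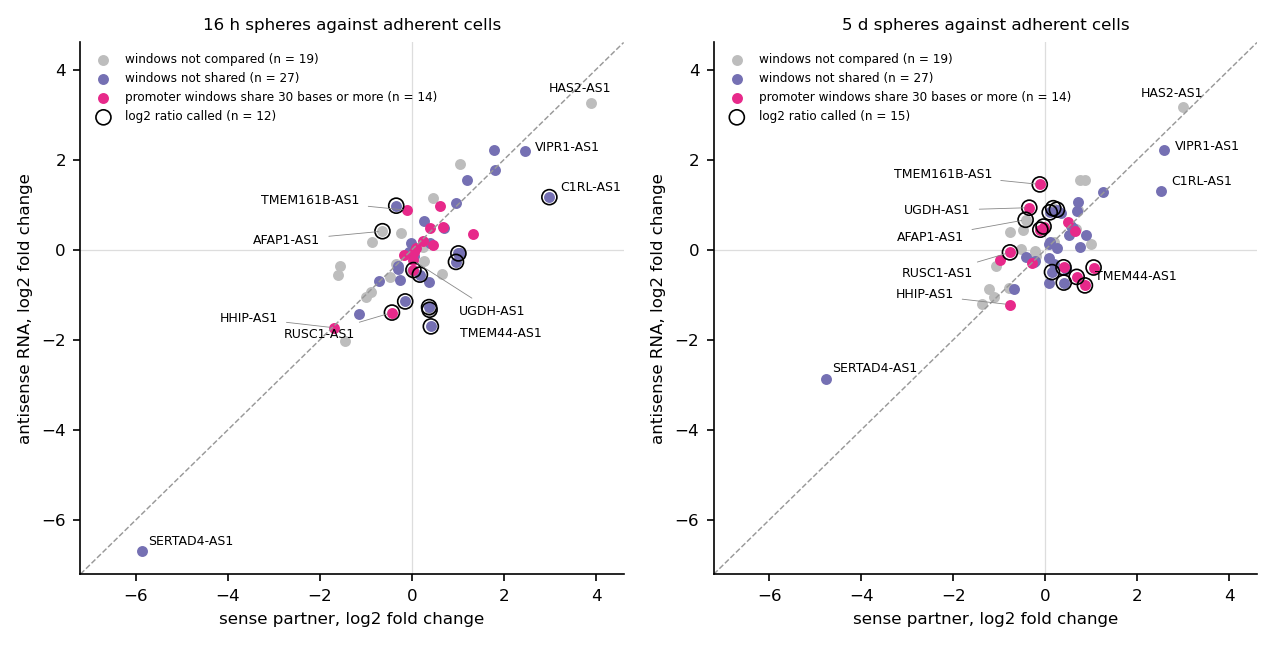
Log2 fold change of the antisense RNA (vertical) against that of its sense partner (horizontal) for 60 pairs, at 16 h (left) and 5 d (right) against adherent cells, each point a pair and the dashed line equal change. Pink points are the 14 pairs whose promoter windows share at least 30 bases, blue the 27 that share less, grey the 19 without both windows, and black rings the 12 and 15 pairs with a called ratio, 2 of the pink ones at 16 h and 9 at 5 d.

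Of the antisense RNAs named after their sense gene, 60 pairs were measured in the culture table. At 16 h the antisense RNA was called in 29 and the partner in 43. In 23 both were, with 9 pairs up together, 9 down together and 5 in opposite directions. At 5 d both were called in 24 pairs (14 up, 8 down, 2 opposite) and from 16 h to 5 d in 18 (8 up, 6 down, 4 opposite). Of all tested genes 53.9% were called at 16 h, 55.2% at 5 d and 48.3% from 16 h to 5 d. The joint calls were not tested against what the separate shares alone would give. Across the 60 pairs the log2 changes of antisense RNA and partner had Pearson's r of 0.84 (Spearman's coefficient 0.63) at 16 h, 0.74 (0.53) at 5 d and 0.55 (0.41) between the sphere times. This is a description across genes that share the same libraries, and reads in overlapping exons can count toward both.

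Some antisense RNAs moved apart from their partners, which was tested as a change in the log2 ratio of antisense RNA to sense gene. At 16 h the ratio rose in 2 and fell in 10 of the 60 pairs, where 11.2% of all antisense pairs measured were called. At 5 d it rose in 9 and fell in 6 (13.5% of all pairs), and from 16 h to 5 d it rose in 10 and fell in 3 (15.2%). These counts lean on single libraries. At 16 h they were 4 without adherent replicate 1 and 3 without adherent replicate 2. At 5 d they were 2 without either adherent library or 5 d replicate 2 and 9 without 5 d replicate 1, and between the sphere times 7 without either adherent library and 6 without 5 d replicate 2. Calls that held in every alternative were CTBP1-AS2, RUSC1-AS1 and AFAP1-AS1 at 16 h, HNRNPU-AS1 and AFAP1-AS1 at 5 d, and HNRNPU-AS1, CTBP1-AS2, RUSC1-AS1, UGDH-AS1, WAC-AS1 and ARHGAP5-AS1 between the sphere times.

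RUSC1-AS1 faces RUSC1, which encodes an adaptor with RUN and SH3 domains, and shares part of its promoter window with it. Where exons of the pair overlap, its reads cannot be told apart from those of RUSC1, which limits the counts and ratios given here. RUSC1-AS1 also held a far larger share of the pair's counts in culture than in siRNA libraries, as given further on. It stood at 2019 and 2012 in adherent cells, 764.2 and 767 at 16 h, and 1962 and 1907 at 5 d. The 16 h libraries lay far below the other 4 (-1.4 ± 0.05, adjusted p = 2.61e-23), and the 5 d libraries lay near the adherent ones (-0.06 ± 0.05, adjusted p = 0.355). RUSC1 went from a mean of 336.9 to 249.3 and 197.8, falling by 0.43 ± 0.13 and 0.77 ± 0.13. The ratio fell by 0.96 ± 0.13 at 16 h (adjusted p = 0.000628) and rose by 1.67 ± 0.13 from 16 h to 5 d (adjusted p = 3.73e-06). Its 5 d call against adherent cells (0.71, adjusted p = 0.00553) was lost without adherent replicate 1 (adjusted p = 0.103), adherent replicate 2 (0.0919) or 5 d replicate 2 (0.0869).

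CTBP1-AS2, near the start of the corepressor gene CTBP1, had 206 and 197.3 normalized counts in adherent cells, 97 and 84.3 at 16 h, and 181.2 and 177.2 at 5 d. It dipped at 16 h by -1.15 ± 0.17 (adjusted p = 2.58e-07), with no overlap, while CTBP1 had means of 950.8, 861.4 and 707.9. The ratio fell by 1.00 ± 0.16 at 16 h (adjusted p = 0.00224) and rose by 1.26 ± 0.16 from 16 h to 5 d (adjusted p = 0.000254). WAC-AS1 faces WAC, an adaptor in histone H2B ubiquitination. It stood at 210.5 and 203.3, then 147.1 and 155.1, then 281.6 and 311.2, with no overlap between any groups, while WAC had means of 1881, 1928 and 1834 and was not called. The ratio rose by 1.04 ± 0.12 from 16 h to 5 d (adjusted p = 0.000126). UGDH-AS1 faces UGDH, the enzyme that makes UDP-glucuronate for hyaluronan and other glycosaminoglycans. It was at 42.3 and 40.8, then 37.3 and 33, then 64.2 and 100.1, highest in the 5 d libraries, whereas UGDH had means of 954.9, 969.9 and 750.7. From 16 h to 5 d the ratio rose by 1.54 ± 0.27 (adjusted p = 0.00224).

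AFAP1-AS1 faces AFAP1, which links actin filaments to Src signalling. It stood at 488.2 and 458.4 in adherent cells, 623.5 and 635.1 at 16 h, and 701.8 and 802.6 at 5 d, every sphere library above both adherent ones. It rose by 0.41 ± 0.08 (adjusted p = 7.79e-05) and 0.66 ± 0.08 (adjusted p = 1.79e-08) while AFAP1 fell by 0.64 ± 0.07 and 0.43 ± 0.07, so the ratio rose by 1.05 ± 0.12 (adjusted p = 0.000379) and 1.09 ± 0.12 (adjusted p = 0.000254). ARHGAP5-AS1 faces ARHGAP5. It had 98.1 and 67.6, then 94.9 and 62.3, then 187.4 and 157.1 normalized counts. Only the 5 d libraries stood apart (1.07 ± 0.22, adjusted p = 9.43e-05), whereas ARHGAP5 had risen already at 16 h, from a mean of 1894 to 3819. The ratio rose by 1.44 ± 0.22 from 16 h to 5 d (adjusted p = 0.00131), and its fall at 16 h (-1.09 ± 0.22, adjusted p = 0.00985) was lost without adherent replicate 1 (-0.83, adjusted p = 0.216) and, with an adjusted p just above 0.05, without replicate 2. HNRNPU-AS1, named for the nuclear RNA-binding protein gene HNRNPU, was at 306.4 and 291.6, then 326.2 and 277.2, then 553.8 and 580.8. It rose at 5 d by 0.92 ± 0.11 (adjusted p = 2.37e-09), HNRNPU by 0.17, and the ratio by 0.75 ± 0.09 (adjusted p = 0.000345).

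Pairs that share promoter bases are set beside the others here as a description, without a test. At 5 d the ratio was called in 9 of the 14 measured pairs that share at least 30 bases (5 up, 4 down) and in 4 of 27 pairs with both windows but less sharing (2 up, 2 down). At 16 h the counts were 2 of 14 and 8 of 27, and from 16 h to 5 d 6 of 14 and 4 of 27. The 5 d counts were 0 of 14 and 0 of 27 without either adherent library or 5 d replicate 2, and 7 of 14 and 0 of 27 without 5 d replicate 1. At 16 h they were 1 of 14 and 2 of 27 without adherent replicate 1, and 1 of 14 and 1 of 27 without replicate 2. From 16 h to 5 d they were 3 of 14 and 2 of 27 without either adherent library or 5 d replicate 2, and 6 of 14 and 2 of 27 without 5 d replicate 1. Across the 14 sharing pairs Pearson's r of the log2 changes (Spearman's coefficient) was 0.77 (0.72) at 16 h, -0.07 (-0.24) at 5 d and -0.03 (-0.13) between the sphere times. Across the 27 others the values were 0.89 (0.65), 0.86 (0.72) and 0.66 (0.42), so at 16 h the order of the groups depended on the coefficient. TMEM161B-AS1, with the longest shared stretch printed, went from 7.55 and 10.4 to 17.1 and 17.1 and to 20.7 and 32.4. Its rise at 5 d (1.45 ± 0.47, adjusted p = 0.009) was lost without adherent replicate 1 (1.25, adjusted p = 0.0869) or 5 d replicate 2 (1.14, adjusted p = 0.093).

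Further members that the naming rule gives changed as well. TUG1, a widely expressed nuclear and cytoplasmic RNA that starts 947 bases from MORC2, was at 981.7 and 1046, then 1020 and 999, then 1458 and 1373. Only the 5 d libraries stood apart (0.48 ± 0.06, adjusted p = 1.97e-08), and MORC2 differed by -0.06 (adjusted p = 0.566). KCNQ1OT1, the imprinted RNA that silences genes around KCNQ1 in cis, rose at 5 d by 0.86 ± 0.26 (adjusted p = 0.0055), a call lost without adherent replicate 2 (0.75, adjusted p = 0.0652). MMP24-AS1 went from 863.3 and 909 to 1365 and 1372 and to 1577 and 1574, a rise of 0.63 ± 0.06 (adjusted p = 6.19e-12) and 0.83 ± 0.06 (adjusted p = 3.37e-15), while MMP24, a membrane matrix metalloproteinase, was not called. GENCODE v29 lists that locus as protein-coding. FGD5-AS1 rose at 16 h by 0.25 ± 0.06 (adjusted p = 0.00123) and was back at adherent values at 5 d (0.01). LOXL1-AS1 fell at 16 h by 0.71 ± 0.24 (adjusted p = 0.0133), a call lost without adherent replicate 1 or 16 h replicate 1, with an adjusted p of up to 0.147.

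RP11-122K13.12 was at 8.3 and 13.4 in adherent cells, 87.4 and 75.7 at 16 h, and 69.4 and 49.3 at 5 d. Its sphere libraries lay above the adherent ones by 2.83 ± 0.33 (adjusted p = 1.97e-09) and 2.36 ± 0.33 (adjusted p = 1.12e-07). The row named RN7SL1 showed the largest rise at 5 d, from 15.9 and 14.6 to 145 and 166.1 and to 568.3 and 526.9, 3.27 ± 0.19 (adjusted p = 2.63e-17) and 5.08 ± 0.19 (adjusted p = 4.62e-23). That name belongs to the RNA of the signal recognition particle, of which the genome holds many near-identical copies, so its counts are uncertain. In the siSCIRT table its group means were 402.9, 577.8 and 937.4 with overlapping groups, and it was not called.

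The share of antisense RNAs called after SCIRT knockdown lay below that of all genes and above those of other noncoding classes. Antisense genes outside the list were called in 2% of cases with siSCIRT 1 and 1.2% with siSCIRT 2. Intergenic noncoding RNAs were called in 2.33% and 2.21%, and coding genes in 11.9% and 11.2%. With siSCIRT 1, 5 rose and 5 fell of 240 tested, 4.17% against 10.2% of all genes (4.63% up, 5.56% down). With siSCIRT 2, 7 rose and 3 fell, 4.17% against 9.54% (4.49% up, 5.05% down), and DESeq2 called 17. Both comparisons use the same siNC libraries. DESeq2 called 14 with siSCIRT 1, and with the replicate number as a block both siSCIRT counts were higher, as given in the last section. Shares over all genes were not counted under DESeq2 or the block. The comparison with all genes thus covers only limma without a block. Between the 2 siRNAs limma called 0 of 240, as did edgeR and DESeq2, with 7 at an unadjusted p under 0.05, and 0% of all genes. With siEZH2, 2 rose and 8 fell of 245, 4.08% against 6.84% (3.9% up, 2.94% down), from which nothing is read since levels in these libraries chose the members. Of the 245, 5 reached a mean of 50 in the siEZH2 group only and 21 in the siNC group only, and of the 10 called CTD-2510F5.4 is among the former and RP3-510O8.4 among the latter. The siEZH2 count was 0 without the filter on low values and 3 with DESeq2, and quantile normalization gave 3 higher and 4 lower. These counts also lean on single libraries. For siSCIRT 1 they were 3 without siNC replicate 1, 5 without siNC replicate 3, 2 without siSCIRT 1 replicate 2 and 6 without its replicate 3. For siSCIRT 2 they were 4, 6 and 3 without siNC replicates 1, 2 and 3, 6 without siSCIRT 2 replicate 1 and 3 without its replicate 3. For siEZH2 they were 5 without siEZH2 replicate 1, 3 without siNC replicate 1 and 4 without siNC replicate 2. The median log2 change was 0.03, 0.04 and -0.13 for siSCIRT 1, siSCIRT 2 and siEZH2, beside 0.01 over all genes in each. With siEZH2 the values of the other antisense genes (median -0.18) and of intergenic noncoding RNAs (-0.15) also lay below those of coding genes (0.03).

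CTD-2510F5.4 overlaps PRR11, a gene of the cell division cycle, on the opposite strand, with 30.2% of its exon bases under opposite exons. Its siNC libraries in the siSCIRT table stood at 293.3, 305.2 and 293.5. Those of siSCIRT 1 stood at 146.6, 163.9 and 145.5, and those of siSCIRT 2 at 173.4, 195.7 and 154.8. Every knockdown library lay below every control, by -0.97 ± 0.13 (adjusted p = 0.000277) and -0.77 ± 0.13 (adjusted p = 0.00168). In the siEZH2 table it stood at 24.9 and 28.4 in siNC and at 117 and 79.6 with siEZH2. It reached the selection threshold only through the siEZH2 libraries, so these values are a description, with no test. PRR11, which the selection did not use, fell from a mean of 2979 to 1376 and 1667 with the siSCIRT siRNAs and rose from 220.3 to 578.5 with siEZH2 (1.39 ± 0.15). In the culture table CTD-2510F5.4 fell from 48.3 and 53 to 23.5 and 23.2 at 16 h and 23.8 and 23.1 at 5 d (-1.08 at both times, adjusted p = 0.00757 and 0.00788). Those 2 calls were lost without either adherent library, at adjusted p values of 0.0509 and 0.0897 for 16 h and 0.0517 and 0.0906 for 5 d.

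RP11-34A14.3, opposite LOXL4, was higher with the siSCIRT siRNAs. Its siNC libraries were at 89.4, 109.4 and 102, those of siSCIRT 1 at 208.9, 223.3 and 193.3, and those of siSCIRT 2 at 198.8, 187.7 and 175.1. No groups of control and knockdown overlapped, and it rose by 1.05 ± 0.14 (adjusted p = 0.000253) and 0.90 ± 0.14 (adjusted p = 0.00101). Levels in the siEZH2 table chose the members, so the siEZH2 values of this gene and of VIPR1-AS1 are a description. With siEZH2 RP11-34A14.3 was at 53.5 and 60.6 against 88.9 and 118.3, a fall of 0.84 ± 0.22. The call was lost without siNC replicate 2 (-0.63), with DESeq2 and without the filter. LOXL4 rose by 0.60 ± 0.08 and 0.46 ± 0.08 with the siSCIRT siRNAs and fell by 0.88 ± 0.12 with siEZH2. VIPR1-AS1 was at 160.6, 200.4 and 200.7 in the control, at 215.2, 266.5 and 274.4 after siSCIRT 1 (0.43 ± 0.15, adjusted p = 0.0844), and at 229.9, 288.2 and 280.3 after siSCIRT 2 (0.51 ± 0.15, adjusted p = 0.043). All knockdown libraries lay above the controls, and the siSCIRT 2 call was lost in 7 alternatives, with an adjusted p of up to 0.173. With siEZH2 it stood at 62.2 and 68.8 against 150.1 and 113.7, a fall of 0.99 ± 0.21. The call was lost without siNC replicate 1 (-0.79) and without the filter. VIPR1 changed by 0.60, 0.52 and -0.69.

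**Figure D3:**
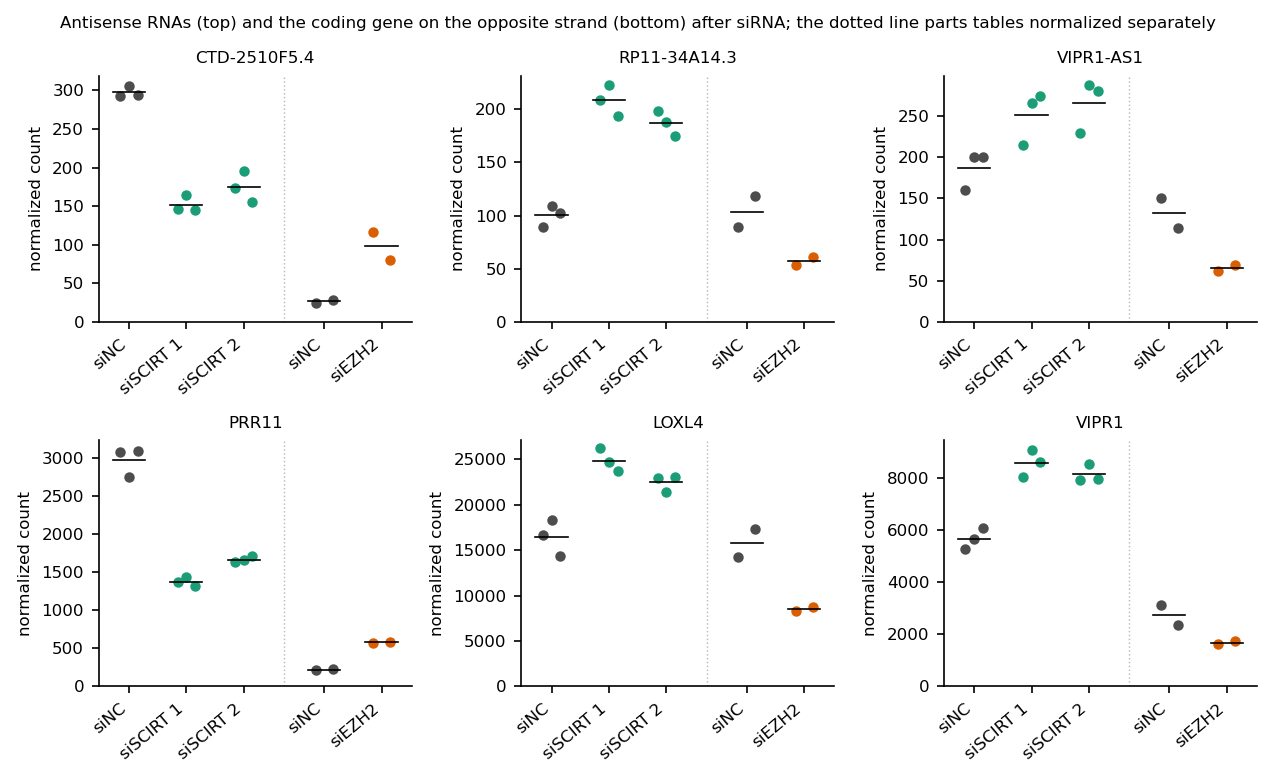
Normalized counts (vertical, from 0) in each siRNA library, with lines at group means, for 3 antisense RNAs (top) and the coding gene opposite each (bottom), the siSCIRT table left and the siEZH2 table right of the dotted line, which are not on a common scale. CTD-2510F5.4 and PRR11 are lower with both siSCIRT siRNAs and higher with siEZH2, and RP11-34A14.3 with LOXL4 and VIPR1-AS1 with VIPR1 show the opposite order.

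CTD-2510F5.4 and RP11-34A14.3 were the 2 members whose siSCIRT calls held in every alternative, with either siRNA. The other 8 calls with siSCIRT 1 were rises of the gene with identifier ENSG00000262903.1 (0.66), RP11-1277A3.1 (0.56), TPT1-AS1 (0.31) and PTCHD3P1 (0.30), and falls of RP11-24F11.2 (-0.84), AC093673.5 (-0.62), RP11-284F21.10 (-0.56) and CTD-2366F13.1 (-0.47). All 8 were lost without siSCIRT 1 replicate 2. With siSCIRT 2 the other 8 were rises of STARD4-AS1 (0.68), RP11-1277A3.1 (0.59), the gene with identifier ENSG00000262903.1 (0.55), AC016738.4 (0.51), VIPR1-AS1 (0.51) and PTCHD3P1 (0.26), and falls of RP11-818F20.5 (-0.78) and RP11-284F21.10 (-0.58). Without siNC replicate 3 all of these but RP11-818F20.5 were lost, and without siSCIRT 2 replicate 3 all but RP11-284F21.10. The remaining siEZH2 calls are given as a description, since levels in these libraries chose the members. ARHGAP5-AS1 rose from 195 and 197.2 to 349.7 and 274.1 (0.66 ± 0.16). Falls were those of ITGB2-AS1 (-0.71), RP3-510O8.4 (-0.70, over the selection threshold through its siNC libraries only), RP11-600F24.7 (-0.64), RP11-334C17.5 (-0.63), HNRNPU-AS1 (-0.52) and DBH-AS1 (-0.50). Each of these 7 was lost without siNC replicate 1. In the siRNA comparisons 0 of the antisense to sense ratios were called by limma, with 4, 6, 0 and 15 at an unadjusted p under 0.05 for siSCIRT 1, siSCIRT 2, siSCIRT 1 against siSCIRT 2 and siEZH2. Among all antisense pairs 1.06% were called with siSCIRT 1 and 0% in the other 3.

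The responses to siEZH2 and to the siSCIRT siRNAs were compared in a single fit, added after the data had been seen, in which each response is taken against the controls of its own table. The siEZH2 response differed from the mean siSCIRT response in 20 of 240 members, 5 above and 15 below, against 15% of all genes (8.51% above, 6.51% below). The libraries that chose the members form part of this contrast, so the count and the values below are a description. EZH2 RNA itself was also lower with both siSCIRT siRNAs, as given above. The difference held in every alternative for RP11-34A14.3 (-1.81 ± 0.23), VIPR1-AS1 (-1.45 ± 0.23) and FGD5-AS1 (0.45 ± 0.10). For CTD-2510F5.4, selected through its siEZH2 libraries, it was 2.69, given as a description. FGD5-AS1 was at 7067, 7253 and 6874 in the controls of the siSCIRT table, at 6127, 6373 and 6458 after siSCIRT 1, and at 6198, 6485 and 5847 after siSCIRT 2. It was at 4039 and 3984 in the siEZH2 table's siNC and at 4967 and 4755 with siEZH2. The groups did not overlap in either table, but alone the 3 responses of FGD5-AS1 missed the threshold (-0.16, adjusted p = 0.119, -0.19, adjusted p = 0.0591, and 0.28, adjusted p = 0.154). The count of 20 was 11 without the siSCIRT table's siNC replicate 1, 13 without siSCIRT 1 replicate 2 or 3, 5 without siEZH2 replicate 1, and 10 and 9 without the siEZH2 table's siNC replicates 1 and 2.

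The antisense RNA's share of the counts of its pair depended on the table. This share is taken within a library and needs no scaling between tables, which were normalized separately. Of 73 pairs listed in all 3 tables, 17 had a higher share in every culture library than in any siRNA library and 8 a lower one. VIM-AS1 made up 21.2% to 22.6% of the counts of VIM and VIM-AS1 in the culture libraries, against 0.269% to 0.399% in the siSCIRT and 0.244% to 0.329% in the siEZH2 libraries. For RUSC1-AS1 the share was 74.9% to 91.1%, against 11.2% to 18.1% and 12.2% to 16.5%. For PXN-AS1, opposite the focal adhesion gene PXN, it was 21.7% to 25.5% against 1.09% to 1.42% and 1.02% to 1.4%. The exon bases of these 3 antisense RNAs under opposite exons come to 32.2%, 31.0% and 38.6%. PINK1-AS held 31.0% to 33.8% in culture libraries against 5.46% to 11.6% in siRNA libraries, and HAS2-AS1 4.21% to 8.63% against 1.23% to 2.34%. The 8 with a lower share in culture include TPT1-AS1, at 0.156% to 0.264% against 1.67% to 2.92%, and PSMD5-AS1, at 9.40% to 18.2% against 24.2% to 37.4%, with 5.28% and 0% of exon bases under opposite exons. How reads in overlapping exons were assigned in each table is not given in the sources used here. In the culture table, the reads of VIM-AS1, RUSC1-AS1, PXN-AS1, PINK1-AS and HAS2-AS1 thus cannot be told apart from those of their sense partners where exons overlap. Why the tables differ was not tested.

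**Figure D4:**
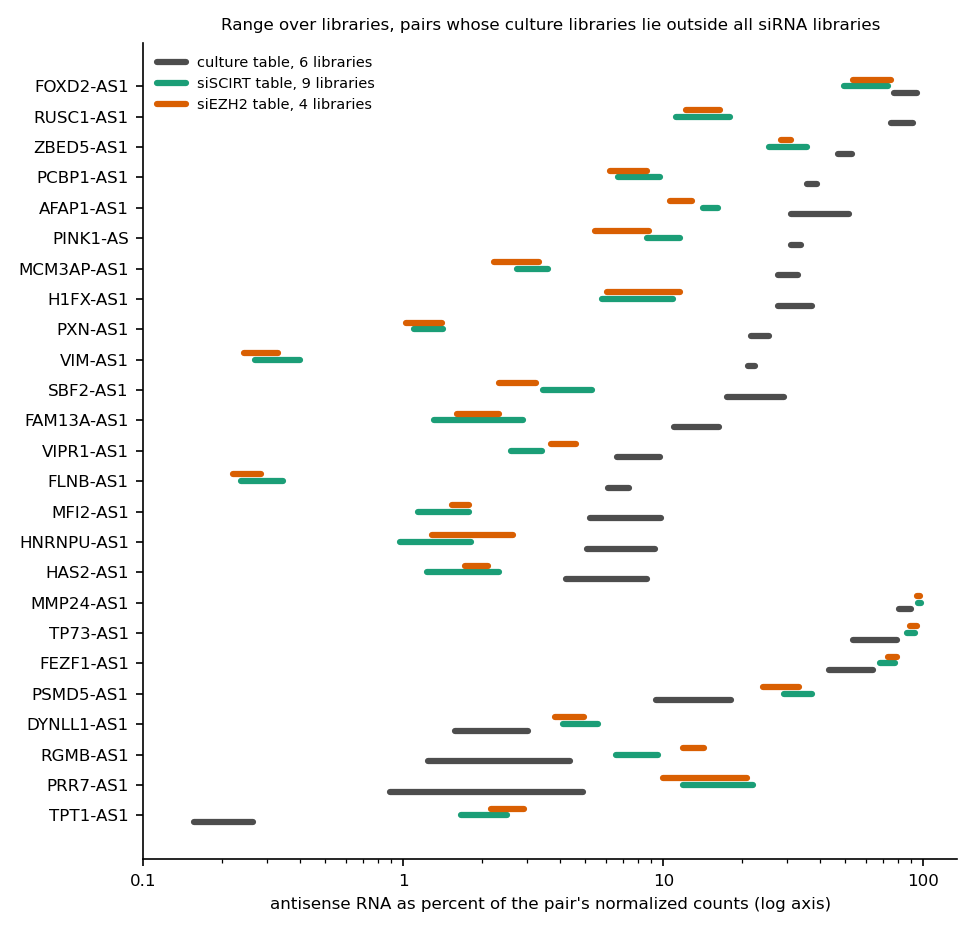
Range over libraries of the antisense RNA's percent of its pair's normalized counts (horizontal, log axis) in the culture (grey, 6 libraries), siSCIRT (green, 9) and siEZH2 (orange, 4) tables, for the 25 pairs whose culture libraries lie outside all siRNA libraries. The grey bars lie to the right in the upper 17 pairs, from FOXD2-AS1 to HAS2-AS1, and to the left in the lower 8, from MMP24-AS1 to TPT1-AS1.

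Genes that remove or process nuclear noncoding RNA, namely exosome subunits and their targeting complexes, were followed as a list of 23 tested genes. At 16 h 4 rose and 2 fell, at 5 d 4 rose and 8 fell, and from 16 h to 5 d 5 rose and 8 fell, where 53.9%, 55.2% and 48.3% of all genes were called. EXOSC9, a subunit of the exosome ring, fell from a mean of 724 normalized counts to 243.8 and 364.4 (-1.57 ± 0.10 and -0.99 ± 0.10), and ZFC3H1, which hands polyadenylated nuclear RNA to the exosome, rose from 304.6 to 538.3 and 693.6 (0.81 ± 0.10 and 1.19 ± 0.10). With each siSCIRT siRNA 3 fell and 0 rose, where 10.2% and 9.54% of all genes were called, and with siEZH2 none of the 23 was called (4 at an unadjusted p under 0.05). The list's median log2 change was 0.08, -0.18 and -0.14 in the 3 culture comparisons, -0.05 with each siSCIRT siRNA and 0.09 with siEZH2. Of 11 other long noncoding RNAs measured in the culture table, 4 rose and 3 fell at 16 h and 4 rose and 4 fell at 5 d, against the same 53.9% and 55.2%. None of 17 was called with either siSCIRT siRNA (4 and 4 at an unadjusted p under 0.05), and with siEZH2 0 rose and 2 fell of 16. MALAT1, the nuclear speckle RNA, rose from 205.6 to 1732 and 1929 (3.07 ± 0.07 and 3.22 ± 0.07). Of the sense partners as a list, 28 rose and 18 fell at 16 h and 29 rose and 20 fell at 5 d of 67 tested, against 53.9% and 55.2% of all genes. With siSCIRT 1 2 rose and 1 fell of 73, with siSCIRT 2 3 rose and 0 fell, and with siEZH2 1 rose and 2 fell of 71. Of all genes 10.2%, 9.54% and 6.84% were called in these comparisons. The siRNA counts of the lists above stand beside the same shares.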

How the data were processed

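RNA from 19 MDA-MB-231 libraries was prepared as total RNA with TRI Reagent and the TruSeq RNA v2 kit, per the labels' protocols. Per the submitters' processing notes, the build was hg19 and the tools included TopHat2, Partek and CASAVA 1.4. The authors deposited variance-stabilized log2 values for the culture and siSCIRT tables, which were inverted here to normalized counts, and a normalized count signal for the siEZH2 table. Dividing by the value of 1 read gave whole reads for 100% of values in all 19 libraries (tolerance 0.05). No hg19 genome was used here.

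Each table was tested alone with limma 3.58.1 in R 4.3.3 on log2(normalized count + 1), with trend and robust settings, two-sided, for genes with a mean of at least 10. That left 13789, 16607 and 15823 genes in the culture, siSCIRT and siEZH2 tables, over which p-values were Benjamini-Hochberg adjusted. Values after ± on fold changes are standard errors. The labels do not say whether replicates came from separate cultures, so the spread behind the p-values may be technical. The ratio of a pair was tested likewise, on the difference of the 2 log2 values. On simulated data limma recovered 97, 99 and 100 of 100 genes changed 2-fold in the 16 h, siSCIRT 1 and siEZH2 comparisons. The changed genes had a mean of at least 50 and all genes were given the same dispersion. The median member mean in the culture table was 36.03, so this recovery does not measure the power for these members.

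The members and all lists were chosen with earlier results of these data known. Genes given with values are the 6 largest rises and 6 largest falls among called members per comparison (groups apart, higher mean at least 20); gene-AS members where either gene of the pair was called with a log2 change of at least 1 against adherent cells, or called in an siRNA comparison; the 5 members of highest mean in the siEZH2 table; TUG1, KCNQ1OT1, VIM-AS1 and LOXL1-AS1; and a few from each list. OIP5-AS1, ZEB1-AS1 and GAS5-AS1, in the same rule, are not members. PXN-AS1, UGDH-AS1, AFAP1-AS1, WAC-AS1 and PSMD5-AS1 fall outside that rule and were chosen after their values were seen. Genes of the coding strand were taken from the -AS name or from GENCODE v29 (GRCh38), used for structure only.

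Alternatives were edgeR 4.0.16 (TMM, quasi-likelihood) and DESeq2 1.42.0 on the recovered reads, a pseudocount of 8, no filter, quantile normalization, the replicate number as a block, and each library left out. Python 3.11.15 with pandas 2.3.3, numpy 2.4.6 and matplotlib 3.10.9 was used for joins and plots. Depth limits the precision most in the culture table, where 42 listed members fell under the filter, against 4 in the siSCIRT table.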

Additional observations from a re-analysis of the deposited data

Results flagged for a closer look

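In the fit over both siRNA tables, 20 antisense RNAs had a siEZH2 response that differed from the mean response to the 2 siSCIRT siRNAs at an adjusted p under 0.05 (limma), each response taken against the siNC libraries of its own table. The values below are the siEZH2 log2 change minus the siSCIRT log2 change. Levels in the siEZH2 table chose the members, so these values are a description.

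In 5 the siEZH2 response lay above. The difference was 2.69 for CTD-2510F5.4, 0.895 for STXBP5-AS1, 0.776 for RP11-23P13.6, 0.622 for ARHGAP5-AS1 and 0.455 for FGD5-AS1. CTD-2510F5.4 reached the selection threshold only through its siEZH2 libraries, so its difference follows in part from the selection.

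In 15 it lay below. The largest differences were -1.81 for RP11-34A14.3, -1.45 for VIPR1-AS1, -1.12 for RP11-600F24.7, -1.06 for RP3-510O8.4 and -1.03 for the gene with identifier ENSG00000262903.1. They were -0.919 for STARD4-AS1, -0.862 for RP11-334C17.5, -0.769 for CTD-3184A7.4, -0.723 for CTC-378H22.2, -0.7 for RP11-1277A3.1 and -0.615 for BX470102.3. They were -0.535 for PCBP1-AS1, -0.482 for PSMD5-AS1, -0.461 for TP73-AS1 and -0.456 for TPT1-AS1. RP3-510O8.4 reached the threshold only through its siNC libraries.

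The 16 other than CTD-2510F5.4, RP11-34A14.3, VIPR1-AS1 and FGD5-AS1 were lost under at least 1 alternative. The siSCIRT and siEZH2 experiments are separate tables with controls of their own, so the table and the target of the siRNA cannot be told apart.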

How the results depend on the processing

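No direction reversed. Among the named single results, leaving out 1 library ended the call in 360 of 1374 combinations of a result and a library. Calls were ended by omitting the filter in 40 of 199 results, by DESeq2 in 20 of 139, the replicate block in 16 of 179, quantile normalization in 6 of 139, edgeR in 1 of 139 and a pseudocount of 8 in 1 of 199. Counts of members called moved by over 1.5 times with siSCIRT 1 under the replicate block (22, main 10), with siSCIRT 2 under the block (21, main 10) and DESeq2 (17), and with siEZH2 without the filter (0, main 10), under the block (4) and with DESeq2 (3). Quantile normalization turned the siEZH2 split from 2 higher and 8 lower to 3 higher and 4 lower. Ratio calls at 5 d were 6 without the filter (main 15), and with siEZH2 2 at a pseudocount of 8 (main 0). The comparison of the siEZH2 and siSCIRT responses gave 12 calls without the filter (main 20), and EZH2 itself kept -0.92 with an adjusted p of 0.363. The causes were not tested.

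Leaving out each library in turn gave 56 to 82 members called at 16 h, 58 to 80 at 5 d, 55 to 64 from 16 h to 5 d, 2 to 11 with siSCIRT 1, 3 to 10 with siSCIRT 2, 0 to 0 between the siSCIRT siRNAs and 3 to 10 with siEZH2. Ratio calls ranged over 3 to 16, 2 to 18, 6 to 15, 0 to 1, 0 to 0, 0 to 0 and 0 to 2 in the same order, and the response comparison over 5 to 30. SCIRT ranged from -1.20 to -1.11 with siSCIRT 1 and -1.27 to -0.97 with siSCIRT 2, and EZH2 from -0.94 to -0.90. Where 1 library was left in a group, it was assumed to vary like the others.

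Replicate numbers were treated as names, since the labels do not say what they mark and not every same-numbered pair correlated above 0.1. Libraries of the same number correlated at -0.0198 to -0.00379 in the culture, -0.014 in the siEZH2 and -0.00432 to 0.575 in the siSCIRT table, where 8 of 9 such pairs were above 0 and 7 above 0.1, and 4 of 9 libraries correlated best with their own number. In that table the numbers may therefore mark a shared source, under which the block's 22 and 21 calls apply. The share of all genes called under the block was not counted. Whether the members lie below all genes in that setting was therefore not tested.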
